A study of Mus musculus with 15 samples.

Results

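Transcript levels of 8 transcription factors that mark segments of the nephron were measured in single dissected proximal tubules and in whole kidney. The factors were Hnf4a, Hnf4g, Pax2, Pax8, Emx1, Tfcp2l1, Foxi1 and Gata3, picked by gene symbol from the 47069 genes of the table, and each symbol matched 1 gene. All libraries came from male C57BL/6 mice aged 2 months, and the labels give no mutation, transgene or treatment for any of them. The first group was 12 libraries made from microdissected single tubules labelled PTS2, with 4 replicates in each of the sets m1, m2 and m3 (3 sets). The second was 3 libraries of whole kidney. Both kinds were made from polyA RNA with the same low-input cDNA kit. The labels do not say what the letter m stands for. Tubules of a set may come from the same animal, so the p-values measure the spread between these libraries, which may be partly technical. Values are TPM, transcript abundances corrected for length and brought to the same sum in each library. This unit does not hold the sequencing depth, which is unknown, so that no counting error can be given.

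The kidney tubule is a chain of segments, from the proximal tubule through the thick ascending limb of Henle's loop and the distal convoluted tubule to the collecting duct. Each segment keeps its own combination of transcription factors in adult life. HNF4 proteins maintain the transporter and metabolic genes of the proximal tubule, and PAX2 and PAX8 act in the formation of the whole nephron. FOXI1 drives the program of the acid-base transporting intercalated cells, and GATA3 and TFCP2L1 act in the collecting system.

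The tubules were checked against segment markers, and 2 libraries stood apart. The summed level of 4 proximal tubule markers was 136% of whole kidney, which rests on Slc27a2, a fatty acid transporter and the most abundant of them, at 198% and called higher. The other markers, Lrp2, Cubn and Slc34a1, were at 97.7%, 97.6% and 73.7% and were not called. The S1 markers Slc5a2 and Slc5a12 were nearly absent, at 0.108% of whole kidney. The S2 markers Slc22a6 and Slc22a8 together were at 86.2%, and the S3 markers Slc7a13 and Slc22a7 at 273%. Both S3 markers were called higher, with every tubule above every kidney library, while of the S2 markers Slc22a8 was called lower and Slc22a6 was not called. The markers thus ran towards S3, against the label, and PTS2 is used here as the labels' name. In m3 replicate 3 the sum of 5 thick ascending limb markers (Umod, Slc12a1, Cldn16, Ptger3, Kcnj1) was 1441 TPM, or 56.1% of the whole kidney mean, against a median of 10.7 TPM over the 12 tubules. In m1 replicate 4 the principal cell markers (Aqp2, Aqp3, Scnn1g, Avpr2) summed to 50.5 TPM, the highest of the tubules, against a median of 17.2 TPM. Most of that sum was Aqp3, at 43.1 TPM, which was at 7.31 to 29.7 TPM in every other tubule. Aqp3 was highest in replicate 4 of m2 and m3 too, at 21.4 and 29.7 TPM. In m1 replicate 4 Aqp2 was at 6.90 TPM, Avpr2 at 0.43 TPM and Scnn1g at 0. The calls of the 7 factors that passed the filter on low values were the same with both libraries left out, and Umod, Atp6v1b1, Mecom, Hmx2, Tfap2b and Sim2 are given with and without m3 replicate 3.

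The 8 factors fell into distinct patterns. Tubules and whole kidney overlapped for Hnf4a, Hnf4g and Pax8, whose tubule means were at 89.9%, 141% and 111% of whole kidney. Emx1, Tfcp2l1 and Pax2 were lower, at 42.4%, 19.6% and 15.8% of whole kidney, and Gata3 and Foxi1 were at less than 1%. A gene was called where limma, run on log2(TPM + 1) over all genes with a mean of the 2 group means of at least 1 TPM, gave a Benjamini-Hochberg adjusted p under 0.05. Of the 8 factors 7 passed this filter, and 4 of the 7 were called lower and 0 higher. Among all 12697 genes tested, 54.3% were called, 45.1% lower and 9.24% higher, so that a call alone is common here. The median log2 difference of all genes tested was -0.30. A mean under 25% of whole kidney, as for Tfcp2l1, Gata3 and Foxi1, was found in 12.9% of the genes tested, and a mean under 5%, as for Gata3 and Foxi1, in 4.99%. Gata3 and Foxi1 passed the filter only through their level in whole kidney, so they had to differ. Pax2 did not pass it and was tested in the fit without a filter.

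**Figure D1:**
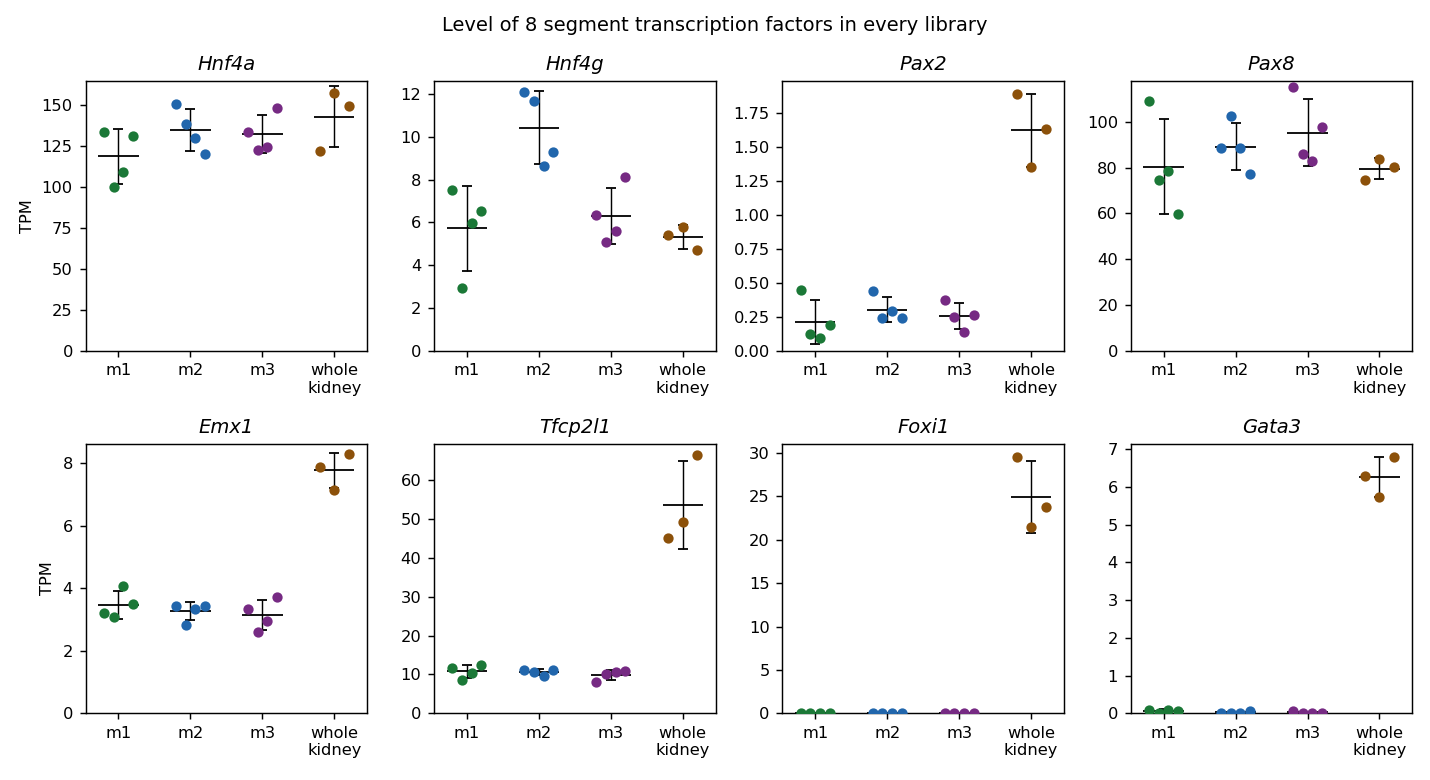
TPM of the 8 factors (vertical axes, each from 0) in each PTS2 library by set and in each whole kidney library; points are libraries, the horizontal bar is the group mean and the whisker its SD. Hnf4a, Hnf4g and Pax8 overlap between tubules and kidney, and the 3 kidney libraries lie above every tubule for Emx1, Tfcp2l1, Pax2, Foxi1 and Gata3.

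Hnf4a encodes a nuclear receptor that sustains transporter and metabolic genes in proximal tubule and liver. Hnf4a had the highest level of the 8 in both groups. Over the 12 tubules its lowest level was 100.04 TPM, the median 131 TPM and the highest 151 TPM, and the whole kidney libraries held 122, 158 and 149 TPM. The groups overlapped, and m1 replicate 2 was the lowest of the 15 libraries. The mean of the tubules was 129 ± 14.6 TPM (SD, n = 12) and that of the kidneys 143 ± 18.7 TPM (SD, n = 3). The log2 difference of -0.15 ± 0.11 (SE) was not called (limma adjusted p = 0.245). Its sign depended on scaling: with libraries rescaled by the median of ratios it was 0.14 (adjusted p = 0.183).

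The gene lies at chr2:163506808-163572910 on the plus strand (GRCm38, GENCODE M21) and is known to be transcribed from an upstream and a downstream promoter. The 250 bases before its upstream RefSeq start (GRCm38.p6) are printed because this was the only window of the 8 factors to hold one of the motifs searched. Promoters of 7 of the 8 factors were in the RefSeq table, with 10 windows in all. Capitals mark an exact match, on either strand, to any of 3 motifs: the HNF4 site CAAAGTCCA, the GATA site AGATAA and the forkhead site TGTTTAC.
Hnf4a upstream window, chr2:163506607-163506856, plus strand: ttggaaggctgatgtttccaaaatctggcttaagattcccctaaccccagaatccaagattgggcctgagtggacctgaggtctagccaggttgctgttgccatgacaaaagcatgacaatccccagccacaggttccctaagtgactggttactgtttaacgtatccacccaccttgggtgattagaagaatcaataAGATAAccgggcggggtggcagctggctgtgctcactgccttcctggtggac
The window holds 1 GATA site, as do 9.99% of 32851 promoter windows of the same length, while 0.384% hold the HNF4 site and 3.17% the forkhead site. The other 9 windows, the downstream one of Hnf4a and those of Pax2, Pax8, Emx1, Tfcp2l1, Foxi1 and Gata3, hold none of these letters. TPM were summed over the gene, so they do not show which promoter was used. An antisense gene, Hnf4aos, overlaps the upstream part of Hnf4a but shares 0 exonic bases with it. The mean of Hnf4aos was 23.2 ± 4.00 TPM (SD, n = 12) for the tubules and 16.8 ± 2.21 TPM (SD, n = 3) for the kidneys. It was called higher in PTS2 (log2 difference 0.43 ± 0.14 SE, limma adjusted p = 0.0175), although the lowest tubule, at 17.9 TPM, was below the highest kidney library, at 18.7 TPM.

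Hnf4g is the paralog of Hnf4a (chr3:3508030-3658052, plus strand) and binds similar DNA. It was far below Hnf4a in all 15 libraries. The tubules ranged from 2.91 TPM in m1 replicate 2 to 12.1 TPM in m2 replicate 1, with a median of 7.01 TPM, and whole kidney held 5.41, 5.79 and 4.70 TPM. The tubules spanned the kidney range on both sides, and 9 of 12 were above every kidney library. The means were 7.48 ± 2.67 TPM (SD, n = 12) and 5.30 ± 0.553 TPM (SD, n = 3). The log2 difference was 0.36 ± 0.26 (SE) and was not called (limma adjusted p = 0.255). After quantile normalization it was 1.09 and was called (adjusted p = 0.000821), and after median-of-ratios rescaling it was 0.61 (adjusted p = 0.0505).

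As TPM are per length, the levels of both paralogs can be set side by side. Hnf4g was at 5.72% ± 1.68 (SD, n = 12) of the Hnf4a level in the tubules and at 3.75% ± 0.646 (SD, n = 3) in whole kidney. The range was 2.91% to 8.43% in the tubules and 3.15% to 4.43% in whole kidney, so the groups overlapped. Reads could in principle be shared between the paralogs. Their coding sequences (GENCODE M21) were identical at 70.2% of 1361 aligned bases, and 0% of the 50-base words of Hnf4a occurred in Hnf4g. The longest run in common was 17 bases, printed in capitals with 15 bases on each side to show how soon the paralogs part.
Hnf4a, coding bases 664 to 710: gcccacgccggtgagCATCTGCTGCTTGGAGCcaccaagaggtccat
Hnf4g, coding bases 682 to 728: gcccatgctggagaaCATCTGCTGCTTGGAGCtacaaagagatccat

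Other proximal tubule factors behaved unevenly. Of 6 factors listed as proximal (Maf, Nr1h4, Ppara, Rxra, Cux1, Esrra), 4 were called lower in PTS2, where 45.1% of all genes tested were, 0 were called higher and 2 were not called. Their median log2 difference was -0.66, against -0.30 over all genes tested. The bile acid receptor gene Nr1h4 averaged 129 TPM in the tubules against 134 TPM in the kidneys and was not called (log2 difference -0.08 ± 0.24 SE, limma adjusted p = 0.801). Cux1 was not called either (-0.04 ± 0.10 SE, adjusted p = 0.746), but was called higher after median-of-ratios rescaling (0.25, adjusted p = 0.0139). Esrra, a nuclear receptor of mitochondrial genes, fell by 1.31 on the log2 scale (SE 0.14, adjusted p = 4.09e-07). Maf fell by 1.25 (SE 0.25, adjusted p = 0.000542), a call that was lost after quantile normalization (log2 difference -0.60, adjusted p = 0.0717). Ppara, the receptor for fatty acids, fell by 0.69 (SE 0.18, adjusted p = 0.00444) and missed the threshold after median-of-ratios rescaling (-0.40, adjusted p = 0.0563). Rxra, the partner of many nuclear receptors, fell by 0.63 (SE 0.14, adjusted p = 0.00115).

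Transporter genes that mark stretches of the proximal tubule did not follow Hnf4a as a block. Slc22a6, an organic anion transporter, averaged 585 TPM in the tubules against 486 TPM in the kidneys (adjusted p = 0.665). Slc22a8, a related transporter, was at 68.0 and 272 TPM (log2 difference -2.21 ± 0.47 SE, adjusted p = 0.000801). Slc5a2, the glucose transporter of the early proximal tubule, was at 0.698 and 621 TPM (-8.57 ± 0.25, adjusted p = 2.60e-14). Slc5a2 passed the filter only through whole kidney and had to be lower, so its p-value is a description. Umod is a thick ascending limb gene, and its mean of 117 TPM in PTS2 rests on m3 replicate 3, at 1232 TPM, against at most 48.3 TPM in the other tubules, whose mean was 15.8 TPM.

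Pax8 encodes a paired-box factor of nephron formation that is kept in adult tubule epithelium. The lowest tubule held 59.6 TPM, the median was 87.2 TPM and the highest was 115 TPM, and whole kidney held 74.7, 83.7 and 80.4 TPM. The kidney libraries lay inside the range of the tubules. The means were 88.4 ± 15.7 TPM (SD, n = 12) and 79.6 ± 4.59 TPM (SD, n = 3), and the log2 difference of 0.13 ± 0.15 (SE) was not called (limma adjusted p = 0.478). After median-of-ratios rescaling it was 0.42 and was called higher (adjusted p = 0.0114). Pax8 (chr2:24420560-24475599, minus strand) shares 367 exonic bases, 6.06% of its own, with Gm13415 on the other strand, which was at 0.596 TPM in PTS2. Whether reads were counted by strand is not given in the sources used here.

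Pax2, the paralog that acts beside Pax8 in the early nephron and in the branching collecting system, was low everywhere. The tubules ranged from 0.09 to 0.45 TPM with a median of 0.245 TPM, and whole kidney held 1.89, 1.35 and 1.63 TPM. Every tubule was below every kidney library, as were 20% of the 30969 genes tested without a filter. The means were 0.257 ± 0.117 TPM (SD, n = 12) and 1.62 ± 0.270 TPM (SD, n = 3). In the fit without a filter Pax2 was called lower, by 1.06 ± 0.10 (SE) on the log2 scale (limma adjusted p = 4.09e-07), where 26.9% of genes were called lower. At these levels the added 1 TPM shrinks a log2 difference. Pax2 was at 0.285% ± 0.107 (SD, n = 12) of Pax8 in the tubules and at 2.06% ± 0.460 (SD, n = 3) in whole kidney, and the highest tubule, at 0.497%, was below the lowest kidney library, at 1.61%.

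Pax2 lies at chr19:44756045-44837871 on the plus strand. The coding sequences were identical at 71.5% of 1149 aligned bases, and 0% of the 50-base words of Pax2 occurred in Pax8. The longest run in common, 27 bases, is shown in capitals because it is the longest stretch of coding sequence in which a read of the abundant paralog could pass for the rare one without a mismatch.
Pax2, coding bases 190 to 246: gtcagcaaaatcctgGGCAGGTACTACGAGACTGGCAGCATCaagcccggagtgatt
Pax8, coding bases 172 to 228: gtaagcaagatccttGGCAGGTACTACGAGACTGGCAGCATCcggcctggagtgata

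Emx1 and Tfcp2l1 were lower in the tubules but still plainly measured. Emx1 is a homeobox factor best known from the developing cerebral cortex (chr6:85187438-85204462, plus strand). The tubules ranged from 2.60 to 4.09 TPM with a median of 3.34 TPM, and whole kidney held 7.87, 7.16 and 8.28 TPM. Every tubule was below every kidney library, as were 35.1% of the genes tested. The means were 3.29 ± 0.401 TPM (SD, n = 12) and 7.77 ± 0.567 TPM (SD, n = 3). On the log2 scale Emx1 fell by 1.03 (SE 0.11, limma adjusted p = 6.88e-07). Under quantile normalization the difference was -0.35 (adjusted p = 0.0217). Its paralog Emx2 averaged 12.3 TPM in both groups (log2 difference 0.01 ± 0.13 SE, adjusted p = 0.943). After quantile normalization Emx2 was called higher (0.56, adjusted p = 0.00128).

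Tfcp2l1 is a grainyhead-related factor of the distal nephron and collecting duct (chr1:118627945-118685168, plus strand). The tubules ranged from 8.13 to 12.5 TPM with a median of 10.7 TPM, and whole kidney held 45.0, 49.1 and 66.4 TPM. The highest tubule was at 23.3% of the kidney mean, and replicate 3 of whole kidney was the highest library for Tfcp2l1 as it was for Aqp2, at 608 TPM against 371 and 414 TPM. The means were 10.5 ± 1.25 TPM (SD, n = 12) and 53.5 ± 11.4 TPM (SD, n = 3). On the log2 scale Tfcp2l1 fell by 2.24 (SE 0.13, limma adjusted p = 2.15e-10). The related genes Tfcp2 and Ubp1 were at 78.0% and 79.6% of whole kidney. Ubp1 was called lower (log2 difference -0.32 ± 0.12 SE, adjusted p = 0.0264), but the call was lost without any 1 of the kidney libraries and the sign turned after quantile normalization (0.08). Tfcp2 was not called (adjusted p = 0.145).

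Markers of other segments in the 2 libraries that stood apart were set beside these values. In m3 replicate 3, with the thick limb markers, Tfcp2l1 was at 10.7 TPM and Emx1 at 2.95 TPM, both inside the range of the other 11 tubules. In m1 replicate 4, with the highest Aqp3 and Aqp2, Tfcp2l1 was at 12.5 TPM, the highest of the tubules, and Emx1 at 3.51 TPM. Intercalated cell markers summed to at most 0.42 TPM and distal convoluted tubule markers to at most 0.55 TPM in any tubule, against 145 and 207 TPM in whole kidney. Leaving out both libraries gave log2 differences of -2.27 for Tfcp2l1 (limma adjusted p = 1.06e-09) and -1.03 for Emx1 (adjusted p = 3.08e-06).

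**Figure D2:**
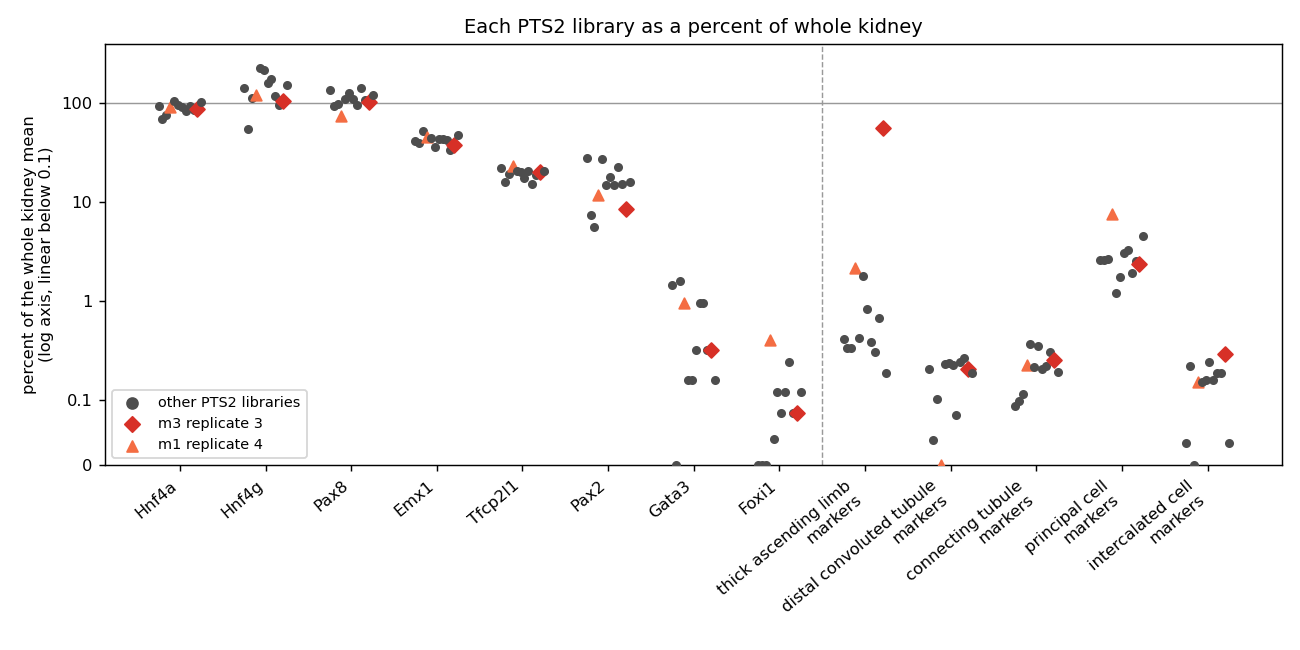
Each PTS2 library as a percent of the whole kidney mean (vertical axis, logarithmic and linear below 0.1), for the 8 factors and for summed markers of 5 other segments or cell types; diamonds are m3 replicate 3 and triangles m1 replicate 4. Thick limb markers reach 56.1% in m3 replicate 3, where Tfcp2l1 is at 20.0% and Emx1 at 38.0%, and intercalated cell markers stay below 0.3% in all tubules.

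Foxi1, the forkhead factor that specifies intercalated cells, was at or near 0 in the tubules. It was listed at 0 in 3 of 12 tubules, the median was 0.02 TPM and the highest was 0.10 TPM in m1 replicate 4, while whole kidney held 29.6, 21.5 and 23.8 TPM. The tubule mean was 0.107% of the kidney mean of 24.97 ± 4.16 TPM (SD, n = 3). The log2 difference of -4.65 ± 0.10 (SE, limma adjusted p = 3.06e-16) is held small by the added 1 TPM, and with 0.1 TPM added it was -7.65. Foxi1 passed the filter only through whole kidney and had to be lower, so the p-value is a description. In bulk RNA, fewer cells of a type and less RNA per cell cannot be told apart. The gene lies at chr11:34204338-34208089 on the minus strand.

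Known targets of FOXI1 were also lower in the tubules, where 45.1% of all genes tested were. Of 5 listed, 5 were called lower, but Slc4a1, Slc26a4, Atp6v1g3 and Atp6v1b1 passed the filter only through whole kidney, as Foxi1 did, and had to be lower. Slc4a1, the chloride-bicarbonate exchanger of acid-secreting cells, averaged 0.0117 TPM in the tubules against 17.4 TPM in the kidneys. Slc26a4 (pendrin), the exchanger of base-secreting cells, was at 0.0633 and 39.6 TPM. The proton pump subunits Atp6v1g3 and Atp6v1b1 were at 0.177% and 0.659% of whole kidney. The highest Atp6v1b1 value, 3.08 TPM, was in m3 replicate 3, and without that library the mean was at 0.120%. Another subunit, Atp6v0a4, which passed the filter in both groups, averaged 27.4 TPM in the tubules against 51.2 TPM in the kidneys, or 53.5% (log2 difference -0.89 ± 0.12 SE, limma adjusted p = 9.25e-06). Foxi1's family members Foxi2 and Foxi3 were listed at 0 in all whole kidney libraries, and Foxi2 was above 0 in 2 tubules, at 0.05 and 0.03 TPM. Of 11 family members of the 8 factors, 4 were tested (Emx2, Tfcp2, Ubp1, Gata2), and 2 were called lower and 0 higher; Gata2 passed the filter only through whole kidney.

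Gata3 encodes a zinc-finger factor of the ureteric bud and of collecting duct principal cells (chr2:9857078-9890034, minus strand). The tubules ranged from 0 in m1 replicate 2 to 0.10 TPM in m1 replicate 3, with a median of 0.02 TPM, and whole kidney held 6.29, 5.72 and 6.79 TPM. The groups were far apart, and the tubule mean was 0.612% of the kidney mean of 6.27 ± 0.535 TPM (SD, n = 3). The log2 difference was -2.81 ± 0.08 (SE, limma adjusted p = 3.02e-14). Gata3 passed the filter only through whole kidney and had to be lower, so this p-value is a description. Gata3 shares 155 exonic bases with the antisense gene Gm13256 and 77 with 9230102O04Rik, which were at 0.0633 and 1.75 TPM in whole kidney, so a small part of its kidney value cannot be assigned. Gata2, a family member, averaged 0.269 TPM in the tubules against 8.19 TPM in the kidneys (log2 difference -2.87 ± 0.14 SE, adjusted p = 3.13e-11). The p-value of Gata2 is a description for the same reason. The water channel gene Aqp2, a known target of GATA factors in principal cells, fell by 7.88 (SE 0.45, adjusted p = 1.76e-10), and its highest tubule value was 6.90 TPM in m1 replicate 4.

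Many but not all factors of other segments were lower in the tubules, to different degrees. Of 8 collecting duct factors listed, 6 were tested (Gata2, Ehf, Elf3, Mecom, Dmrt2, Hmx2) and 6 were called lower, against 45.1% of all genes tested. All but Elf3 passed the filter only through whole kidney and had to be lower, so their count is a description. The last 2, Elf5 and Grhl2, were below the filter. Ehf and Mecom were at 1.93% and 2.07% of whole kidney, and Dmrt2 and Hmx2, factors of intercalated cells and other epithelia, at 0.214% and 0.151%. Mecom and Hmx2 were highest in m3 replicate 3, at 2.49 and 0.10 TPM, and without it they were at 0.824% and 0.0275%. Elf3 was the exception, with 14.9 TPM in the tubules against 23.4 TPM in the kidneys, and its call was lost without any 1 of the kidney libraries and after both rescalings. Of 9 thick limb and distal factors listed, 8 were tested, 4 were called lower (Esrrg, Sim2, Lhx1, Tfap2b) and 4 were not called (Irx1, Irx2, Pou3f3, Emx2), a share of lower calls close to the 45.1% of all genes tested. Of the 4, Sim2 and Tfap2b passed the filter only through whole kidney and had to be lower. The call of Lhx1 was lost after quantile normalization (-0.16, adjusted p = 0.363). Under that normalization Irx1 (0.88, adjusted p = 0.0148), Pou3f3 (0.80, adjusted p = 0.000444) and Emx2 (0.56, adjusted p = 0.00128) were called higher. Irx2 was called lower with each set reduced to its mean (-0.76, adjusted p = 0.00916). Tfap2b and Sim2 were at 2.65% and 4.56% of whole kidney. Both were highest in m3 replicate 3, at 1.44 and 1.58 TPM, and without it they were at 1.30% and 2.21%. Of 4 glomerular factors, 2 were tested, Wt1 and Tcf21, at 4.19% and 2.55%. Both were called lower, as were 45.1% of all genes tested, and both passed the filter only through whole kidney, so they had to be lower.

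**Figure D3:**
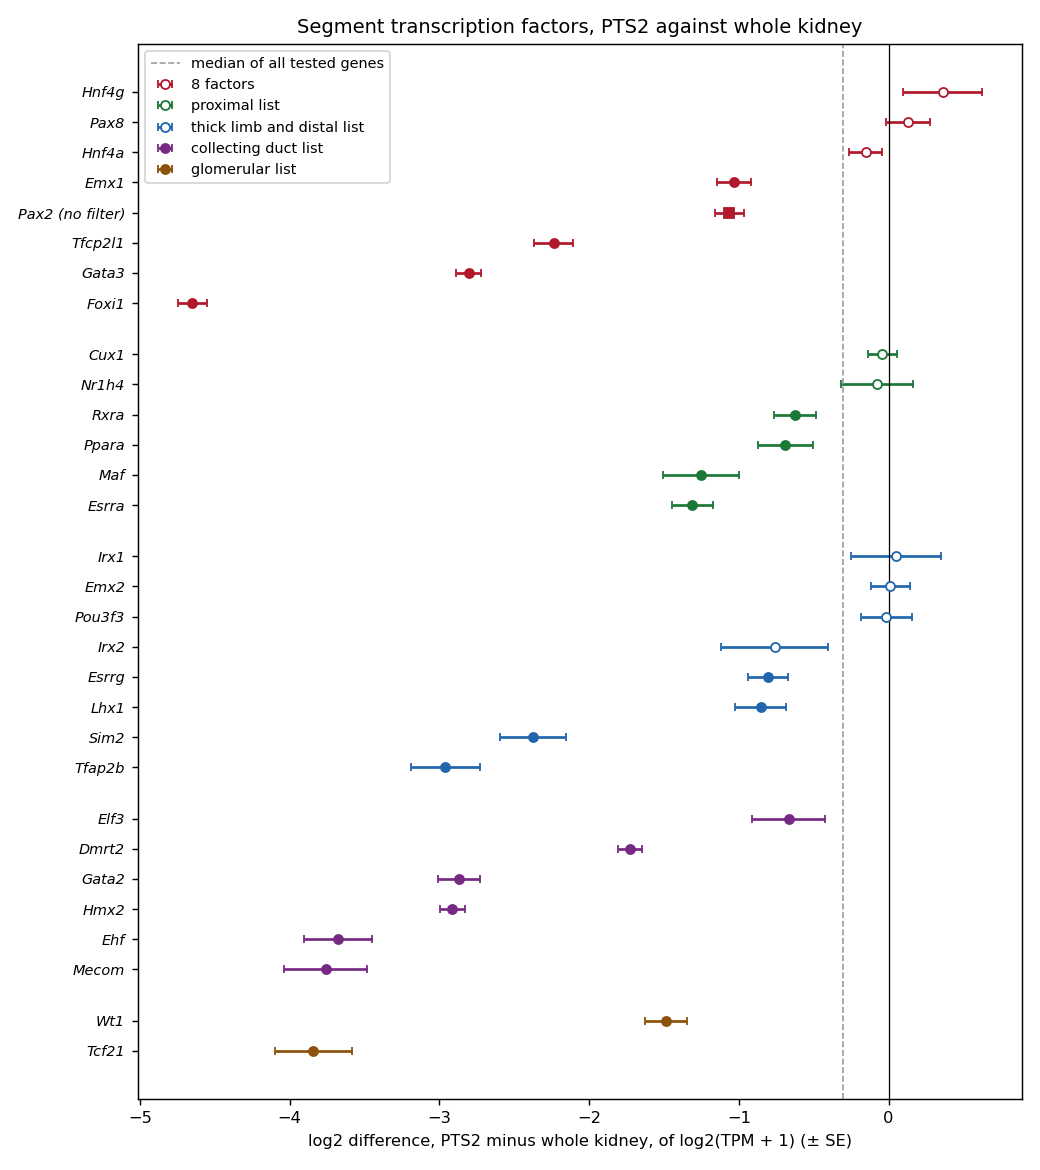
Log2 difference of log2(TPM + 1), PTS2 minus whole kidney, with its SE from limma (horizontal axis), for the 8 factors and 4 lists of other segment factors; filled symbols were called, open ones were not, and the square is Pax2 from the fit without a filter. Hnf4g, Pax8 and Hnf4a lie right of the dashed median of all genes tested (-0.30), and Foxi1 lies farthest left of the genes drawn, at -4.65.

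The order of the factors by level differed between the groups. In the tubules the means ran Hnf4a, Pax8, Tfcp2l1, Hnf4g, Emx1, Pax2, Gata3 and Foxi1. Hnf4a was above Pax8 in 12 of 12 tubules, although their ranges overlapped. Tfcp2l1 was above Hnf4g in 10 of 12 and Hnf4g above Emx1 in 11 of 12, and Pax2 was above Gata3 in 11 of 12. Gata3 and Foxi1 could not be ordered, with Gata3 above Foxi1 in 3 of 12. In whole kidney the means ran Hnf4a, Pax8, Tfcp2l1, Foxi1, Emx1, Gata3, Hnf4g and Pax2, and Gata3 and Hnf4g overlapped, with Gata3 above in 2 of 3. By rank, Hnf4a was the 1204th gene of the tubules and the 1139th of whole kidney by mean TPM. Foxi1 was the 21515th gene of the tubules and the 4793rd of whole kidney.

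Among the 3 sets of tubules, 5 of the 8 factors had a mean of at least 1 TPM and were tested. None was called by limma's F test, which called 3.02% of 11300 genes, and 1 of the 5 had an unadjusted p under 0.05. The adjusted F test p was 0.537 for Hnf4a, 0.610 for Pax8, 0.877 for Emx1 and 0.872 for Tfcp2l1. Hnf4g had the smallest, at 0.118 (0.00713 unadjusted). Its levels were 7.51, 2.91, 5.95 and 6.51 TPM in m1, 12.1, 11.7, 8.63 and 9.30 TPM in m2, and 6.34, 5.10, 5.60 and 8.13 TPM in m3. Every m2 library was above every m1 and m3 library, which was so for 0.637% of the genes tested. The log2 difference of m2 minus m1 was 0.81 ± 0.22 (SE, adjusted p = 0.166) and that of m3 minus m2 was -0.65 ± 0.22 (adjusted p = 0.224), and these contrasts called 0.54% and 1.97% of all genes. The second was called without m1 replicate 2, the library with the lowest Hnf4g (adjusted p = 0.0400), although its size stayed at -0.65, as no m1 library enters it. As a share of Hnf4a, Hnf4g was at 6.64% to 8.43% in m2, 2.91% to 5.62% in m1 and 4.15% to 5.49% in m3.

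Among the 6 proximal factors, 1 was called among the sets, Nr1h4. It had its highest levels in m3, at 152, 155, 158 and 215 TPM, above all m1 libraries (97.0 to 145 TPM) and m2 libraries (81.1 to 121 TPM), as was so for 2.63% of genes. Its F test gave an adjusted p of 0.0272, a call that was lost in 7 of the 12 fits without 1 library (up to 0.0817 without m2 replicate 2). The call was also lost with no filter (adjusted p = 0.112). With the replicate number as a block, limma called Nr1h4 for m2 minus m1 (adjusted p = 0.0299) and m3 minus m1 (0.00494). Under that block the F test called 888 genes. In m3 replicate 4, where Nr1h4 was highest, the S2 markers summed to 1024 TPM, against 370 to 446 TPM in the other m3 tubules, and the proximal markers to 16258 TPM, the highest of the tubules; their part in Nr1h4 was not tested. Replicate 4 also had the highest Nr1h4 in m1 (145 TPM) and m2 (121 TPM), and the same 3 tubules held the least Irx1 of their sets (0.55, 1.79 and 1.28 TPM in m1, m2 and m3). These tubules likewise had the highest S2 sum of their sets (1149, 892 and 1024 TPM in m1, m2 and m3). Their S3 sum was the lowest of each set (2011, 2579 and 2679 TPM). Emx2 was lower in m1 (10.1 to 11.0 TPM) than in every other tubule, as were 1.19% of genes, and its m3 minus m1 difference of 0.37 (adjusted p = 0.0444), a contrast that called 3.17% of all genes, was lost in 10 of 12 fits without 1 library.

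**Figure D4:**
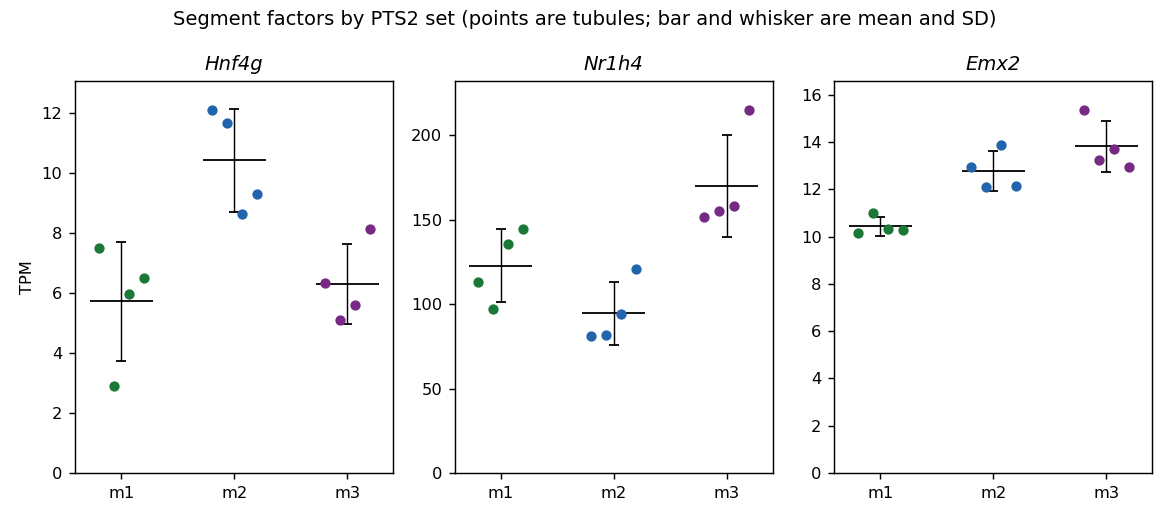
TPM (vertical axes, each from 0) of Hnf4g, Nr1h4 and Emx2 in the 4 tubules of each PTS2 set; points are libraries, and the bar and whisker are mean and SD. Hnf4g is highest in m2 (8.63 to 12.1 TPM), Nr1h4 in m3 (152 to 215 TPM), and Emx2 is lowest in m1 (10.1 to 11.0 TPM).

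The genes most like each factor across the 12 tubules were found by Pearson's r of log2(TPM + 1) among 11299 other genes, as a description over libraries that share sets. Polg (r = 0.94) and Glyr1 (r = 0.93) were nearest to Hnf4a, and Zfp207 (r = 0.97) and Numb (r = 0.94) to Hnf4g. Tmem25 and Scamp5 (both r = 0.91) were nearest to Pax8, Kifc2 (r = 0.86) and Chadl (r = 0.84) to Emx1, and Foxn3 and Spred2 (both r = 0.87) to Tfcp2l1. None of these 10 genes is a segment factor of the lists used. For Pax2, Foxi1 and Gata3, with a median under 1 TPM in the tubules, no nearest genes were sought.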

How the data were processed

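The authors deposited 1 table of TPM for 47069 genes in 15 libraries. The submitters' processing notes name STAR 2.5.1b, RSEM 1.2.31 and GRCm38.p5. Each library sums to 1000000 apart from rounding to 2 decimals. The authors' 4 mean and standard error columns were not used. Groups came from the description labels.

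The tests used limma 3.58.1 (R 4.3.3) on log2(TPM + 1), two-sided, with eBayes fitted to the trend of variance. Genes needed a mean of the 2 group means of at least 1 TPM or, among sets, a mean of at least 1 TPM over 12 tubules. For PTS2 against whole kidney the set was a correlated block (estimated correlation 0.0693). On simulated data, the comparison of PTS2 with whole kidney found 172 of 200 genes changed by a log2 of 1 (5 false calls). That among sets found 156 (4 false calls), each among 12697 genes. These counts hold for the simulated data and do not give the rate of false calls in the 15 libraries. Fold sizes on the scale of log2(TPM + 1) understate changes of low genes.

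Gene positions and coding sequences came from GENCODE M21 (GRCm38) and promoter windows from RefSeq (GRCm38.p6), which share chromosome coordinates with GRCm38.p5. Factors, targets and 48 segment or cell type markers were read from lists, and named genes are those of the lists plus the 2 genes most like each factor. The 8 factors and the lists were chosen with earlier results of these data known. Some genes of the lists are not reported here. Python 3.11.15, pandas 2.3.3 and matplotlib 3.10.9 made the summaries and figures. Alternatives were another pseudocount, filters, scalings, the replicate number as a block, mitochondrial genes left out, no within-set correlation, each set reduced to its mean, and single libraries omitted.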

Additional observations from a re-analysis of the deposited data

Results flagged for a closer look

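The search covered 75 groups of 4 tubules. Each was 1 set for a factor, a ratio of paralogs, or a family or other segment factor with a PTS2 mean of at least 1 TPM. In 4 groups a library's distance to its nearest neighbour was too large a part of the group's range by Dixon's 95% value. Chance would give about 3.75. Emx1 was lowest in m2 replicate 2, at 2.84 TPM, and the next was 3.35 TPM. Foxi1 was highest in m1 replicate 4, at 0.10 TPM, with 0 in the other m1 tubules. In m3 replicate 4, Nr1h4 was highest, at 215 TPM with the next at 158 TPM, and Irx1 was lowest, at 1.28 TPM with the next at 3.68 TPM.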

How the results depend on the processing

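The 8 factors gave 572 values under an alternative, of which 26 were of Foxi1 and 25 of Gata3, which had to differ. A changed sign without a call, as for Hnf4a, counted as a kept call. For called differences between PTS2 and whole kidney, Emx1 gave 25 values, Tfcp2l1 26 and Pax2 1. Apart from these and those of Foxi1 and Gata3, all values were of differences or F tests not called in the main fit. For them a kept call means that none was made. Of the 572 values, 569 kept their call. The other 3 became calls: Hnf4g after quantile normalization (1.09), Pax8 after median-of-ratios rescaling (0.42), and Hnf4g for m3 minus m2 without m1 replicate 2 (-0.65, and from -0.77 to -0.57 over the fits without 1 library). No m1 library enters that last difference, which was -0.65 in the main fit too. Only its standard error and the adjustment of its p-value could change. The cause of the calls after rescaling was not tested. Where a scaling turned a sign between PTS2 and whole kidney, the difference reached 0.0753 for Ubp1, 0.26 for Tfcp2 and 0.80 for Pou3f3 after quantile normalization, and 0.25 for Cux1, 0.21 for Nr1h4 and 0.14 for Hnf4a after median-of-ratios rescaling. Of these only Ubp1 was called as deposited, and Pou3f3 and Cux1 became calls higher in PTS2 after the rescaling named. Over all genes, calls between PTS2 and whole kidney went from 6899 to 3505 with a mean of at least 10 TPM (7130 genes tested) and lay between 5704 and 7366 without 1 library. Among the sets they went from 341 to 196 with no filter, to 175 without m3 replicate 3 and m1 replicate 4 (an alternative chosen after seeing the data), and to between 197 and 563 without 1 library, the lowest without m3 replicate 1 and the highest without m1 replicate 1, with 209, 220 and 226 without m3 replicate 3, m2 replicate 2 and m3 replicate 2. The share of calls that were higher in PTS2 was 17%, 44.6% after median-of-ratios rescaling (median log2 difference -0.04) and 59.6% after quantile normalization (0.12), against a median of -0.30 as deposited.

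With the replicate block the calls among the sets rose to 888, and Nr1h4 became a call for m2 minus m1 (adjusted p = 0.0299) and m3 minus m1 (0.00494). The rule used for pairing asked for a correlation over 0.1 in every same-numbered pair. Of 12 such pairs (0.0254 to 0.273) 7 were over 0.1, among them all 6 of replicates 1 and 4, so the rule was not met. The mean was 0.143, against -0.048 over 36 other pairs, and 10 of 12 libraries correlated best with their own number. Tubules of the same number were thus more alike on average, which the main tests among sets leave out. For Pax2, which is under the filter, only the fits that kept it gave a value. TPM without depth limit what can be said of levels near 0.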
